A study of Mus musculus with 38 samples.

Results

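The sites described here were listed by the authors as HSF2 sites in mouse embryonic stem cells. They overlapped no HSF1 site and lay away from the starts of coding genes, and whether each was bound was not tested here. They were the 287 of 2135 distinct intervals in the authors' list of endogenous HSF2 sites that shared no base with an interval of their HSF1 list. Each was also more than 1 kb from every transcript start of a protein-coding gene in the GENCODE M21 basic annotation of mm10. The remaining intervals fell into 980 HSF2-only sites at coding starts, 292 HSF1-overlapping sites away from coding starts and 576 HSF1-overlapping sites at coding starts. CUT&Tag, in which an antibody directs a transposase to tag the DNA beside a bound protein, was performed on 38 samples from the JM8 line of these cells. Asynchronous (A) cells were compared with mitotic (M) cells, which had been held in 50 ng/ml nocodazole for 6 h, washed and collected by shake-off. The study asked how the binding of the heat shock factors to DNA differs between these phases and which domains of the protein carry it.

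The 8 signals used here came from 4 pairs of A and M conditions, with 2 replicates averaged by the authors in each. Endogenous HSF2 was measured with an antibody against HSF2 in wild-type JM8 cells. The other 3 pairs came from JM8 cells in which Hsf2 had been knocked out with Cas9. These cells carried a stably integrated PiggyBac overexpression construct with an N-terminal HaloTag. The paper names an HA epitope for the constructs measured with anti-HA. It calls the protein measured with anti-HSF2 only Halo-HSF2, so whether both full-length pairs share a construct is not settled. Full-length HSF2 in these cells (Halo-HSF2) was measured with the antibody against HSF2 and, separately, with an antibody against the HA epitope. Its DNA-binding domain alone (Halo-H2DBD) was measured with anti-HA. A construct driven by a vector stands in for the endogenous gene only in part, since its level and regulation are not those of the native locus. The values were signal scaled by reads of Drosophila spike-in cells and averaged over each interval, so they had no replicate spread, and no difference between A and M could be tested against one. The study's methods describe a scale relative to the asynchronous sample, while its table of scaling values for the anti-HA samples shows no such step, so the scale of the levels is not settled. Levels were compared only between A and M within a pair, and otherwise by rank, since antibody or construct differed between pairs. Levels and ratios are given with the 95% interval over sites, which concerns the spread over sites and says nothing of variation between cultures.

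HSF2 is a transcription factor of the heat shock factor family, whose members bind as trimers to heat shock elements, runs of inverted GAA units spaced by a pair of bases. HSF1 drives the rapid induction of chaperone genes under heat and other protein-damaging stress, while HSF2 has known roles in development and in the formation of germ cells, and can join HSF1 in mixed trimers. HSF2 has also been studied as a factor that keeps some of its sites accessible when chromosomes condense.

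The first sequences show the element itself in its genomic setting. Of the 8 members with the highest endogenous signal that held an element of 3 units, GAANNTTCNNGAA on either strand, 7 are shown, together with both element-bearing sites among the 5 strongest members that overlapped a SOX2 site. Each line gives 20 bases on either side, from the plus strand of GRCm38 (mm10), 5′ to 3′, and the capitals mark the element.
Intron of Card14, nearest coding start Sgsh, chr11:119336697-119336749: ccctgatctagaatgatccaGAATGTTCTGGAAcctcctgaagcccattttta
Intergenic, nearest Gadl1, chr9:115870392-115870444: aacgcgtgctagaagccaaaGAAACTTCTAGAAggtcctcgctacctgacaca
Intron of Gm20388, nearest Irf8, chr8:120820379-120820436: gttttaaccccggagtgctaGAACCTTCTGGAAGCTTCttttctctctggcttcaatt
Intron of Sidt2, nearest Tagln, chr9:45942065-45942117: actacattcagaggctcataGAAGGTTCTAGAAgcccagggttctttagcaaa
Intergenic, nearest Ube2s, chr7:4819503-4819555: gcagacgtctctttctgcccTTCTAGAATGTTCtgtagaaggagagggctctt
Intergenic, nearest Tcp11, chr17:28084817-28084869: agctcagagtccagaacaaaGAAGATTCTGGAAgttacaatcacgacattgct
Intron of Etl4, chr2:20563574-20563631: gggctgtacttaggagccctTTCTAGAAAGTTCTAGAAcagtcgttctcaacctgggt
Intron of Pvt1, nearest Myc, chr15:62087453-62087505: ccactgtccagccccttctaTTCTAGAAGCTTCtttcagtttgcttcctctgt
Intron of Fam129b, chr2:32908912-32908964: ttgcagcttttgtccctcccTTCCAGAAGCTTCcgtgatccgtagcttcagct
At the sites near Irf8 and in Etl4, overlapping elements joined into a run of 4 units over 18 bases.

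The next sequences come from members at the top of the endogenous signal. The member near Fhl4, chr10:85025974-85026270, had the highest A signal. It aligned over its whole length of 297 bases to the mitochondrial chromosome at 92.9% identity, and the capitals mark the 21 bases that differ from the aligned mitochondrial base. The following 2 pairs show members whose signal was far higher in M and which were alike in sequence although they lay on different chromosomes. The stretches of the Rsph3a and Batf3 members aligned over 171 bases at 98.2% identity on opposite strands, and those of the Atf2 and Zfp791 members over 172 positions at 86.6%, also on opposite strands. In these pairs the capitals mark bases that differ from the partner or have no partner base in the alignment. All are from the plus strand of GRCm38.
Intergenic, nearest Fhl4, chr10:85025974-85026270: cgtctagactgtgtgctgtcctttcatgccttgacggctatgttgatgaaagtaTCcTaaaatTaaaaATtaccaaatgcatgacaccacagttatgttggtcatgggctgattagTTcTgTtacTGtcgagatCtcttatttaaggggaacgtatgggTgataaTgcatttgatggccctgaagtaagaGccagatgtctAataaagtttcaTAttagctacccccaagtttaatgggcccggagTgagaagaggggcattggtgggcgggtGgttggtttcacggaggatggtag
Intron of Rsph3a, chr17:7952269-7952439: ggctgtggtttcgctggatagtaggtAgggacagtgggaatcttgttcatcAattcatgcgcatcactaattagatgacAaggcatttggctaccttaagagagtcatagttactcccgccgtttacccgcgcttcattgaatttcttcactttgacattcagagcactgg
Intergenic, nearest Batf3, chr1:191120934-191121104: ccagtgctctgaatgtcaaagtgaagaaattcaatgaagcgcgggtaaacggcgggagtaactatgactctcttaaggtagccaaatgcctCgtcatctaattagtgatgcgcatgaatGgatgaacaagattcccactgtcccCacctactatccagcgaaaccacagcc
Intron of Atf2, chr2:73867876-73868046: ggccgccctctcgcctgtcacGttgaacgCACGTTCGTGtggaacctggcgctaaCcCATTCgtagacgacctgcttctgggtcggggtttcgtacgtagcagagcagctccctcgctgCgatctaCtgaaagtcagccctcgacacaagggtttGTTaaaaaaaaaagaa
Intron of Zfp791, chr8:85111847-85112003: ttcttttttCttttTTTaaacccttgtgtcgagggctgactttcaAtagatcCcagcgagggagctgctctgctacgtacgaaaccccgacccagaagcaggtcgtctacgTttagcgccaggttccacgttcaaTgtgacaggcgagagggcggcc

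The last sequences are the 200 bases at the middle of the 2 members whose signal was lowest in M relative to A, in an intron of Onecut3 and in an exon of the long non-coding gene Gm11535 upstream of Hoxb13. Neither site held an element. The capitals mark CpG dinucleotides, of which there were 6 and 9.
Intron of Onecut3, chr10:80502593-80502792: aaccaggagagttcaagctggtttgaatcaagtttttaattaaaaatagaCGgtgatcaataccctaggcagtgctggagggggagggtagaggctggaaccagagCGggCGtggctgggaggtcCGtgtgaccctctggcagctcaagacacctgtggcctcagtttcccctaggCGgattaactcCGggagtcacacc
Exon of Gm11535, nearest Hoxb13, chr11:96177569-96177768: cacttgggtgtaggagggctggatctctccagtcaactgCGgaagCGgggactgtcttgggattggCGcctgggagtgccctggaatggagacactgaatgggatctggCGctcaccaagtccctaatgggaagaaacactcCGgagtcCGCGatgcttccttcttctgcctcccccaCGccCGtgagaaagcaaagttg

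Away from coding starts, HSF2-only sites were spread over genes and the space between them. Of the 287 members, 104 were intergenic (36.2%, Wilson 95% interval 30.9% to 41.9%) and 67 lay in introns. A further 56 overlapped an exon, and 60 lay within 1 kb of the start of a non-coding gene. The nearest coding start was 1 to 5 kb away for 57 members, and 5 to 50 kb away for 155. It was farther for 75, among them 2 on an unplaced contig without coding genes. The median distance was 15421 bp (12346 to 20061, 285 members on chromosomes with coding genes). Chromosome 11 held 42 of the members (14.6%), close to its share of all HSF2 sites (15.2%).

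The members differed in shape and base composition from HSF2 sites at coding starts. Their median width was 1859 bp (1640 to 2030), against 2306 bp for HSF2-only sites at coding starts and 2539.5 bp for HSF1-overlapping sites away from them. Their median ratio of observed to expected CpG was 0.361 (0.335 to 0.393), against 0.669 for the HSF2-only sites at coding starts. A ratio of 0.6 or more was found in 16.8% of the members and 68.3% of the sites at starts. Median GC content was 52.3% and 56.9%. These differences were not tested for chance, and the classes were formed by distance from coding starts.

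A heat shock element of 3 units was found in 53 of the 285 members with chromosomal sequence (18.6%, 14.5% to 23.5%). Windows of the same width 2 kb upstream and downstream held one in 4.21% and 4.56% of cases. Among HSF2-only sites at coding starts the share was 5.71%, and among HSF1-overlapping sites away from starts it was 32.8%. The members thus lay between these classes. The share was 16.7% at HSF1-overlapping sites at coding starts and 14.1% over all HSF2 sites. An element was present in 48 members singly, and 5 members held 2 of them, overlapping in 3 of the 5. Within a site, the 58 elements had a median distance of 249.5 bp (150.5 to 315) from the middle, and 37 of the 58 (63.8%, 50.9% to 74.9%) were closer to the middle than to the nearer edge. With 1 mismatch allowed in the 9 fixed bases the share was 51.2%, against 40.4% and 39.6% in the windows. With 2 units (GAANNTTC, contained in each 3-unit element) it was 70.2%, against 60.4% and 63.5%, so the looser forms were common in any DNA of this width.

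**Figure D1:**
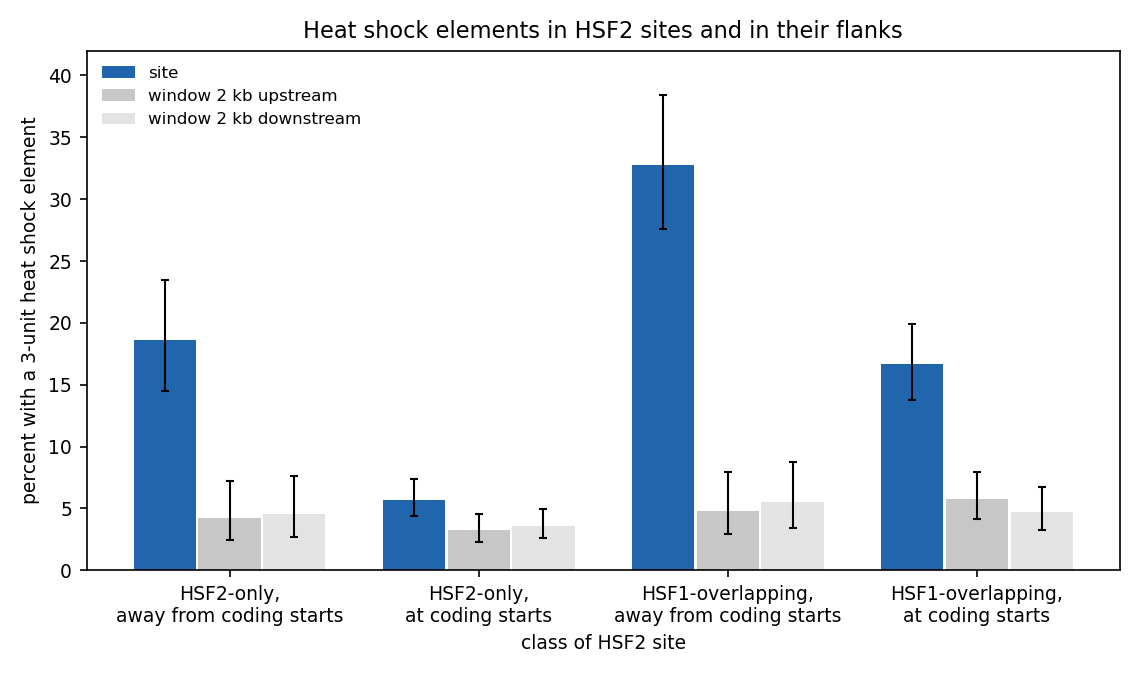
Percent of sites with a 3-unit heat shock element (vertical axis) in each of the 4 classes of HSF2 site and in windows of the same width 2 kb upstream and downstream; bars are shares and lines are Wilson 95% intervals. The members stood at 18.6% against 4.21% and 4.56% in their flanks, above HSF2-only sites at coding starts (5.71%) and below HSF1-overlapping sites away from them (32.8%).

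Other short motifs were counted on both strands as a description, with no inference about a bound factor. The GC box GGGCGG was present in 67.4% of the members and 36.1% and 31.9% of the windows, compared with 98.5% of HSF2-only sites at coding starts. The CTCF core consensus was found in 25 members (8.77%, 6.01% to 12.6%) and in 2.11% of the windows on either side. It was found in 8.62% of HSF1-overlapping sites away from coding starts, in 3.57% of HSF2-only sites at coding starts and in 5.21% of all HSF2 sites. The E-box CACGTG was present in 42.5% of the members (windows 25.6% and 30.2%), the YY1 motif AANATGGCG in 5.61% (2.81% and 1.05%) and the ETS motif CCGGAAGT in 5.96% (2.81% and 3.16%). The last had a share of 12.9% at coding starts and YY1 one of 17.8%. The SOX motif CATTGTT had a lower share in the members (16.8%) than in the windows (23.2% and 19.6%), as did the ESRRB motif TCAAGGTCA (4.91% against 7.02% and 7.37%). The octamer ATTTGCAT differed little, at 11.2% against 9.82% and 11.2%. The motifs CRE (TGACGTCA, 4.56%), TFIIIC B box (GGTTCGANNCC, 1.75%) and NRF1 (GCGCATGCGC, 0.351%) were rare in the members. None of these motifs contains another, although their matches may share bases, and all of their frequencies depend on the base composition of the class.

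Endogenous HSF2 signal at the members was on the whole slightly higher in mitosis, with wide variation between sites in both directions. The median was 5.23 (4.64 to 6.04) in A and 5.86 (5.23 to 6.68) in M, and the median log2 M/A was 0.25 (0.11 to 0.40). The log2 M/A ranged from -6.05 to 5.61 with quartiles at -0.65 and 0.89, and it was above 0 at 170 members (59.2%, 53.5% to 64.8%), beside 72.3% of all HSF2 sites. At 64 members (22.3%) it was 1 or more, a doubling or larger, where 30.1% of all HSF2 sites were this much higher. At 51 members (17.8%) it was -1 or less, where 7.26% of all HSF2 sites were this much lower. Sites with a much lower mitotic signal were thus a larger share of the members than of the whole list, and sites with a much higher one a smaller share. The median was 0.72 (0.66 to 0.79) at HSF2-only sites at coding starts and 0.01 at HSF1-overlapping sites away from them. Over all HSF2 sites it was 0.49, and on a scale centred on that value the members' median was -0.25, with 37 members higher and 84 lower by the same criterion in place of 64 and 51.

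**Figure D2:**
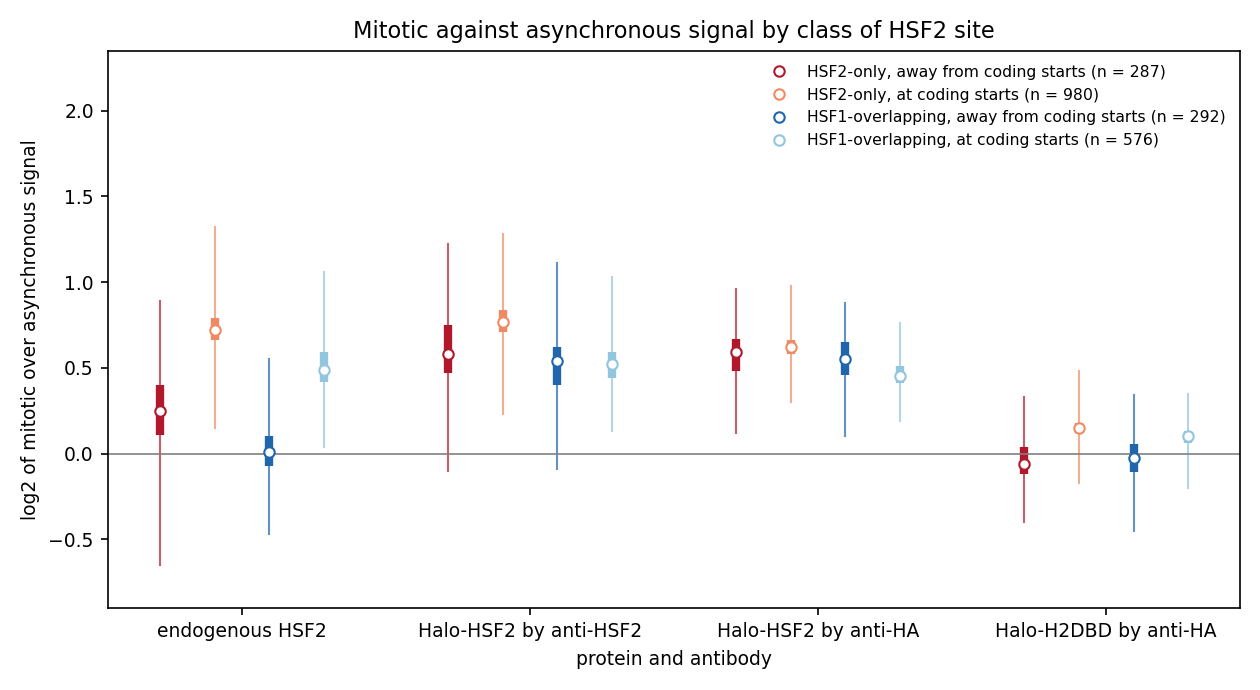
Median log2 of mitotic over asynchronous signal (points) with its 95% interval (thick lines) and quartiles (thin lines) for the 4 pairs of protein and antibody, in each of the 4 classes of HSF2 site. The members had medians of 0.25 for endogenous HSF2, 0.58 for Halo-HSF2 by anti-HSF2, 0.59 for Halo-HSF2 by anti-HA and -0.062 for Halo-H2DBD.

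The 51 members with a lower mitotic signal were strong sites in asynchronous cells. Their median endogenous signal was 19.5 (14.8 to 22.3) in A and 3.62 (2.93 to 4.70) in M. The 64 members with a higher mitotic signal had a median of 2.48 (1.75 to 3.45) in A and 9.06 (6.87 to 11.4) in M, and the 172 between them 4.98 and 5.78. The ratio and the A signal share a term, so this order is in part arithmetic. The lower group was narrower, with a median width of 1391 bp against 1866 bp and 1955 bp for the higher group and those between. Its median CpG ratio was 0.502, against 0.411 and 0.336.

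**Figure D3:**
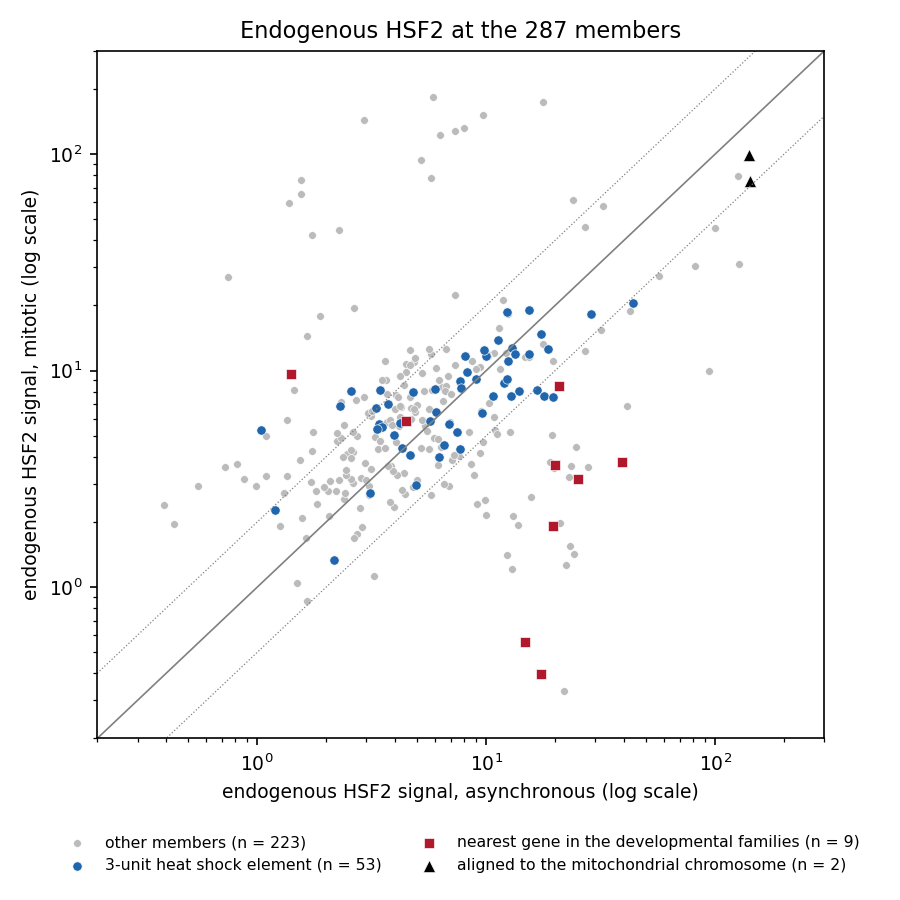
Endogenous HSF2 signal in mitotic (vertical) against asynchronous cells (horizontal), both on log scales, for the 287 members. Colours mark the 53 with a 3-unit element, the 9 nearest to a developmental family gene and the 2 aligned to the mitochondrial chromosome; the solid line marks equal signals and the dotted lines a ratio of 2 either way. The Spearman correlation between the axes was 0.33, and 7 of the 9 developmental members lay below the lower dotted line.

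The largest falls in signal included the members nearest to Hoxb13 and Pax2. By the rule for named sites, these were the 5 lowest log2 M/A among the 144 members whose mean endogenous signal was at or above the median. In the intron of Onecut3, a homeodomain transcription factor, the site at chr10:80502311-80503075 gave 21.9 in A against 0.331 in M (log2 M/A -6.05). The site over Gm11535, 15952 bp upstream of the nearest Hoxb13 start (chr11:96176974-96178364), had 17.4 and 0.395 (-5.47). Hoxb13 is the last gene of the Hoxb cluster and acts in the posterior body. An exonic site in Pax2, a regulator of kidney and eye development (chr19:44760964-44762212), had 14.8 and 0.557 (-4.73). The remaining pair were a site 13358 bp from the start of Nr2f2 (chr7:70346000-70347235, 22.3 and 1.26, -4.14), which encodes the nuclear receptor COUP-TFII, and an intergenic site 140780 bp from Meis1 (chr11:18875204-18877934, 24.2 and 1.42, -4.09), a homeodomain partner of Hox proteins. These members reached the signal threshold through A alone, so nothing is drawn from their low M signal. None of the 5 held a heat shock element.

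Genes of the Hox, Pax, Gata, Fox, Tbx, Lhx, Nkx, Wnt and Ebf families and the family of Six3, a fixed list of developmental regulators, were the nearest coding genes of 9 members. Their median endogenous log2 M/A was -2.99 (-4.73 to 0.40), with 7 of the 9 at -1 or less, beside 17.8% of all members and 7.26% of all HSF2 sites. Over all HSF2 sites the list held 33, of which 23 were at -1 or less. The 15 HSF2-only sites at coding starts nearest to these families had a median of -2.75, with 14 at -1 or less, so the low mitotic values were shared by sites on either side of the distance threshold. The 6 HSF1-overlapping sites away from starts had a median of 0.42. The members beside Hoxb3, an anterior Hox gene, were a pair in its intron at chr11:96329876-96331187 and chr11:96331616-96333677, with signals of 19.9 and 25.1 in A and 3.66 and 3.16 in M. At Six3, needed for forebrain and eye, a site over the antisense gene Six3os1 (chr17:85616968-85619063) had 39.3 in A and 3.78 in M. At Pax6, a master regulator of eye development, an exonic site (chr2:105680090-105681749) had 19.5 and 1.91. The site 1551 bp upstream of Foxl1 (chr8:121124260-121126389) had 20.8 and 8.49. The exceptions were an intergenic site 306836 bp from Foxa2 (4.46 and 5.88) and a site 51755 bp from Wnt7b (1.41 and 9.69), both more distant from the gene than the others. On the centred scale the list's median was -3.49.

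The overexpressed protein showed much smaller differences at the developmental sites. Its median A signals at the 9 members were 2.43 by anti-HSF2, 1.00 by anti-HA and 1.33 for Halo-H2DBD. The medians of all members were 1.38, 1.04 and 1.31, while those of the endogenous protein were 19.5 at the 9 and 5.23 over all members. The anti-HA signals were thus not raised there in A, so their ratios cannot show whether a raised signal was kept in M. With anti-HSF2, the list's median log2 M/A was -0.62 over 8 members with signal in both phases, and none of these reached -1 or 1. The remaining member had signal in A and 0 in M, so it was lower in M but has no ratio. With anti-HA the list's median over the 9 members was 0.32 for Halo-HSF2, with 1 at 1 or more and 0 at -1 or less. For Halo-H2DBD it was -0.14, with 1 at 1 or more and 1 at -1 or less. At the Onecut3 site the anti-HSF2 signal of Halo-HSF2 was 3.53 in A and 1.16 in M, its anti-HA signal 0.383 and 0.646, and the Halo-H2DBD signal 1.20 and 0.262. Of the 51 members with an endogenous log2 M/A of -1 or less, 13 (25.5%) were also at -1 or less for Halo-HSF2 by anti-HSF2. A further 19 (37.3%) were above 0. Among all HSF2 sites chosen in the same way, 154 in number, these shares were 15.6% and 48.1%. Over the 280 members with both signals, 18 (6.43%) were at -1 or less and 199 (71.1%) above 0, so the low group held 13 of the 18. At the member near Dlx5 (chr6:6873880-6874890), chosen after its values were seen, the anti-HSF2 signal was 5.57 and 1.30 (log2 M/A -2.10), the lowest ratio of Halo-HSF2 by this antibody among the members.

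The largest rises in signal were at members with little signal in A, which a ranking by ratio favours by construction. By the same rule these were the member 74191 bp upstream of Alkbh8 (chr9:3260243-3260949), whose endogenous signal of 2.93 in A compared with 142.9 in M (log2 M/A 5.61), and the member in an intron of the zinc finger gene Zfp791 (chr8:85111555-85112118), with 1.56 and 76.1 (5.60). The member near Ifngr2, a subunit of the interferon gamma receptor (chr16:91534571-91535537), had 1.38 and 59.4 (5.43). A member on the X chromosome near Btbd35f28 (chrX:4135789-4136506) had 1.55 and 65.7 (5.40), and one near the olfactory receptor gene Olfr741 (chr14:50466036-50466455) had 0.744 and 27.1 (5.19). These members reached the signal threshold through M alone, so nothing is drawn from their low A signal. None of them held a heat shock element. The X-linked interval was 88.4% composed of 32-base words that occur elsewhere, in a median of 4182 copies, and the others of 18.2% or less.

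Several of the members highest in M resembled each other in sequence. An alignment of at least 60 bp and 80% identity to another HSF2 site was found for 31 of the 285 members. Their median endogenous log2 M/A was 0.83 (0.17 to 3.29), against 0.22 (0.041 to 0.36) for the 254 without such an alignment, and their median M signal was 12.3 (4.34 to 42.2), against 5.65. The 5 highest M signals of the members were 183.1 in the intron of Atf2, a stress-responsive bZIP factor (chr2:73867721-73868284, A 5.86), and 173.3 in the intron of the collagen gene Col6a6 (chr9:105819330-105819550, A 17.7). Then came 151.8 near Batf3, a bZIP factor of dendritic cells (chr1:191120702-191121327, A 9.70), the Alkbh8 member, and 132.6 near the zinc finger gene Zfp945 (chr17:22875609-22878181, A 7.98). Of these 5, all except the Alkbh8 member were among the 31. The Rsph3a member, chosen here as the partner of the Batf3 one in the printed alignment, had 6.30 in A and 122.2 in M. The Batf3 and Zfp945 members aligned over 250 bp at 87.2% identity, and the Col6a6 member aligned over 221 bp at 83.3% to a member near Mrto4 (chr4:139336419-139338448) with 2.65 and 19.4. The Olfr741 member aligned over 413 bp at 91.3% to one in an intron of Tmtc2 (chr10:105237546-105238547, 7.33 and 127.3). The Alkbh8 member aligned over 99.0% of its length, at 76.9% identity, to an annotated ribosomal RNA gene. The full ribosomal RNA repeat was not searched, so likeness of the other members to the rest of it was not tested. The part of this resemblance in the mitotic signal was not tested.

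Halo-HSF2 had higher ratios at these alike members by anti-HSF2 than by anti-HA. Over the 31, the median log2 M/A was 1.51 (0.88 to 2.08, 30 members above 0 in both phases) for Halo-HSF2 by anti-HSF2. It was 0.28 (0.075 to 0.73) for Halo-HSF2 by anti-HA. These pairs were separate samples, and more than the antibody may differ between them. By anti-HA 5 of the 31 (16.1%) were at 1 or more, beside 19.8% of all HSF2 sites, and the Olfr741 member had 1.61. For Halo-H2DBD the median was -0.094, and the Olfr741 member had 1.62. At the Atf2 member the anti-HSF2 signal was 1.09 in A and 14.1 in M, while the anti-HA signal of Halo-HSF2 was 5.76 and 7.01. The Col6a6, Batf3 and Zfp945 members were alike in this respect, with anti-HSF2 log2 M/A values of 2.91, 2.80 and 3.21 and Halo-HSF2 anti-HA values of -0.10, -0.087 and 0.025.

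The highest asynchronous signals belonged to short intervals. They were 142.4 at the Fhl4 member, whose M signal was 75.4, and 140.6 at a member in a gene-poor part of chromosome 5, 1765731 bp from G6pd2 (chr5:60042719-60043085, M 99.1). Both aligned along their whole length to the mitochondrial chromosome, at 92.9% and 97.8% identity, and were the only members to align there. Next were 127 over an exon of the predicted gene Gm10801 (chr2:98663689-98664090, M 31.0), 125.2 near Ajap1 (chr4:153153035-153153942, M 79.3) and 99.7 on the Y chromosome near Gm3376 (chrY:4036379-4036748, M 45.4). Their widths were 297, 367, 402, 908 and 370 bp, all below the lower quartile of the members, 1235.5 bp. Across the members the mean endogenous signal was lower in wider intervals, with a Spearman rho of -0.48 (287 sites sharing the same tracks), while over all HSF2 sites rho was -0.16. Of these intervals 4 were also among the 5 highest in anti-HA signal. At the Fhl4 member the anti-HA signal of Halo-HSF2 was 276.6 in A and 725.5 in M, and that of Halo-H2DBD 275.4 and 492.5, against members' medians of 1.04, 1.54, 1.31 and 1.34.

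Overexpressed full-length HSF2 was higher in M at most members with either antibody, as it was at most HSF2 sites of any class. With anti-HSF2 the median log2 M/A was 0.58 (0.47 to 0.75) over the 280 members above 0 in both phases, with medians of 1.41 in A and 2.00 in M, and it was above 0 at 71.1% of them, beside 79.7% of all HSF2 sites. It was 1 or more at 93 members (33.2%), beside 33.5% of all HSF2 sites, and -1 or less at 18 (6.43%), beside 2.92%. With anti-HA the median was 0.59 (0.48 to 0.67), from medians of 1.04 in A and 1.54 in M, and the value was above 0 at 232 of 287 members (80.8%), beside 86.3% of all HSF2 sites. It was 1 or more at 64 members (22.3%), beside 19.8% of all sites, and -1 or less at 8 (2.79%), beside 0.843%. The medians were close to those of all HSF2 sites, 0.64 and 0.57. The sign of these medians, and of those of the other pairs, rests on the spike-in scale of each track, which averaged values cannot check. Centred on these, 42 members were higher and 50 lower with anti-HSF2, and 24 higher and 22 lower with anti-HA, in place of 93 and 18 and of 64 and 8. A pseudocount of 1 gave 42 and 5 with anti-HSF2 and 6 and 0 with anti-HA, and for members with a mean of at least 1 the anti-HA counts were 32 and 0.

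The DNA-binding domain alone showed no such excess. Its median log2 M/A was -0.062 (-0.12 to 0.038), with signals of 1.31 in A and 1.34 in M, and it was above 0 at 133 members (46.3%), beside 58.6% of all HSF2 sites. At 17 members (5.92%) it was 1 or more, beside 3.98% of all sites, and at 25 (8.71%) it was -1 or less, beside 3.37%. Centred on the median of all sites, 0.10, the counts were 13 and 31, and with a pseudocount of 1 they were 0 and 3. For members with a mean of at least 1 they were 10 and 10. At HSF2-only sites at coding starts the median was 0.15 (0.12 to 0.18). The full-length ratio was the higher of the pair at 220 of the 287 members (76.7%, beside 77.9% of all HSF2 sites), with a median difference of 0.60 (0.49 to 0.73) on the log2 scale, against 0.46 (0.42 to 0.48) over all HSF2 sites.

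**Figure D4:**
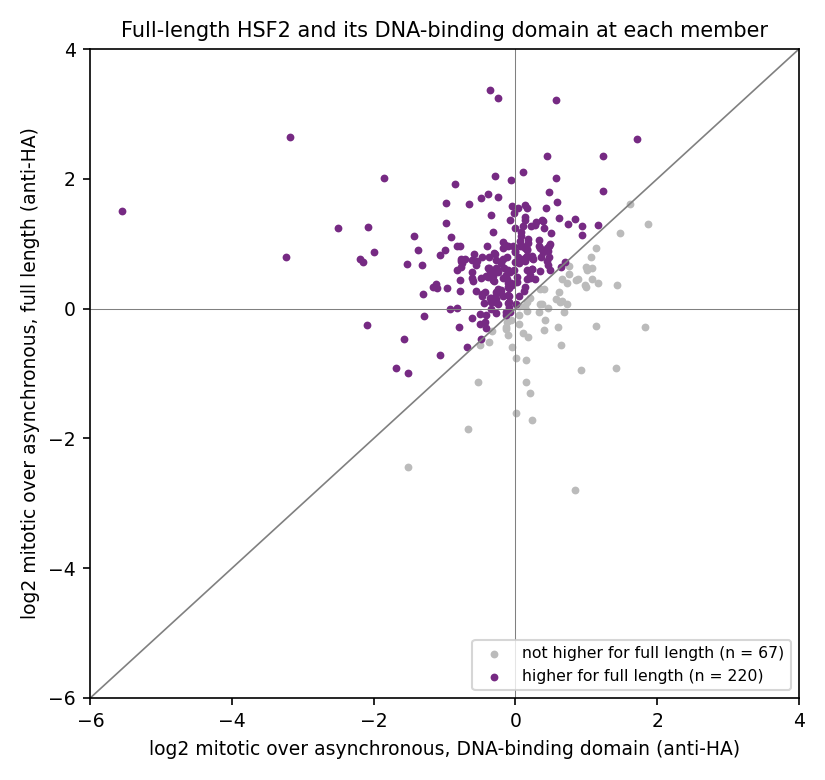
Log2 of mitotic over asynchronous anti-HA signal for full-length HSF2 (vertical) against the DNA-binding domain (horizontal) at each of the 287 members. The full-length value was the higher at 220 members, and the Spearman correlation between the axes was 0.11.

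Phase differences were only partly shared between the tracks. Of the 280 members with all 4 ratios, 59 (21.1%) were above 0 in every one and 10 (3.57%) were below 0 in every one, beside 35.6% and 1.42% of all HSF2 sites. A further 56 (20.0%, beside 19.1%) were above 0 for the endogenous protein and both full-length measurements but below 0 for Halo-H2DBD. The endogenous ratio was related to the anti-HSF2 ratio of Halo-HSF2 across the members (Spearman rho 0.41, n = 280; 0.30 over all HSF2 sites), which share the antibody and the sites. With the anti-HA ratios rho was -0.10 for Halo-HSF2 and -0.09 for Halo-H2DBD, against 0.00 and 0.10 over all HSF2 sites. Of the 62 members at 1 or more with the endogenous protein that had an anti-HSF2 ratio, 34 (54.8%) were at 1 or more with anti-HSF2 too. Among all HSF2 sites chosen in the same way the share was 46.2% (296 of 641). Without that choice it was 33.2% of the members (93 of 280) and 33.5% of all HSF2 sites.

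Some members had all 4 ratios on the same side, and the rule for named sites took those whose smallest ratio was largest. First among the higher ones was an interval of 1452 bp near a non-coding start, 160799 bp from Nfe2l3 (chr6:51270420-51271871), whose log2 M/A was 0.88, 1.07, 1.30 and 0.74 in the order endogenous, anti-HSF2, Halo-HSF2 by anti-HA and Halo-H2DBD. It was followed by a member near Grb7, an adaptor of receptor tyrosine kinases (chr11:98456596-98459383; 0.64, 1.03, 0.54 and 0.76). On the lower side an exonic member of Tfap2b, which encodes the transcription factor AP-2β (chr1:19234429-19235751), had -3.42, -0.83, -1.85 and -0.67, and the exonic member shared by Zic1 and Zic4, a divergent pair of cerebellar zinc finger genes (chr9:91361380-91363000), had -1.94, -1.13, -0.34 and -0.33. The Pax2 member was lower in all 4 as well. An element-bearing member over Mark4, 15421 bp from the start of the muscle creatine kinase gene Ckm (chr7:19426484-19428637), was lower by little in the endogenous signal (13.3 and 11.9) and by more for Halo-H2DBD (1.09 and 0.383).

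The ranks of the members by endogenous and by tagged protein were largely unrelated in asynchronous cells. Endogenous A signal had Spearman correlations of -0.01 to 0.05 with the 4 anti-HA signals and 0.28 with anti-HSF2 in A, over 287 members. Endogenous M signal had correlations of 0.32 to 0.43 with the anti-HA signals. Among themselves the 4 anti-HA signals were correlated at 0.77 to 0.83, full length and domain alike. The mean anti-HA signal had correlations of 0.25 with the percent of 32-base words found elsewhere in the genome (0.01 over all HSF2 sites), 0.18 with the CpG ratio and -0.02 with width. These coefficients describe sites on shared tracks, with uneven width and base composition, and carry no p-value.

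**Figure D5:**
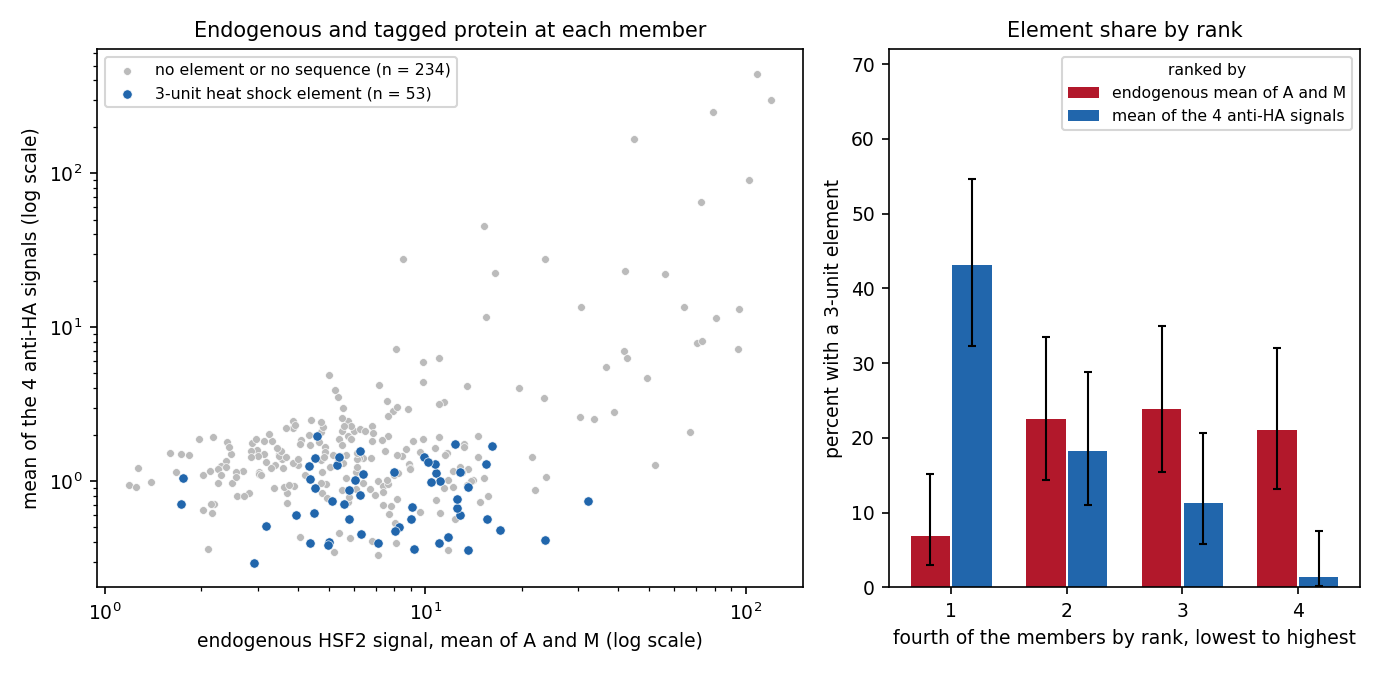
Left, mean of the 4 anti-HA signals against mean endogenous HSF2 signal at each member, both on log scales, with element-bearing members marked. Right, percent of members with a 3-unit element in 4 rank groups, from the lowest to the highest, by either signal, with Wilson 95% intervals; the share ran from 43.1% to 1.41% by anti-HA and from 6.94% to 21.1% by endogenous signal.

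Members with a heat shock element had a higher endogenous signal than those without, and a lower signal of tagged protein by either antibody. Ranked by mean endogenous signal in 4 groups of 71 or 72, 6.94% of the lowest group held an element and 22.5%, 23.9% and 21.1% of the others, so the share differed in the lowest group and was flat above it. Ranked by mean anti-HA signal the shares were 43.1% (32.3% to 54.6%) in the lowest group, then 18.3%, 11.3% and 1.41% (0.249% to 7.56%) in the highest. The endogenous A signal had a median of 7.70 (5.70 to 10.7) at the 53 members with an element and 4.76 (4.20 to 5.64) at the 232 without, and the mean anti-HA signal 0.745 (0.601 to 1.01) and 1.45 (1.31 to 1.53). Halo-HSF2 by anti-HSF2 had medians of 0.686 and 1.54 in A, and 0.953 and 2.25 in M. The element-bearing members were also narrower (1381 against 1895.5 bp) and poorer in CpG (0.238 against 0.392), and the part of these properties in the difference was not tested.

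The endogenous signal at element-bearing members was about the same in both phases. Its median was 7.70 in A and 7.66 (6.34 to 8.73) in M, and the median log2 M/A was 0.018 (-0.37 to 0.30), against 0.36 (0.17 to 0.48) without an element. Of the 53, 5 (9.43%) were at 1 or more and 4 (7.55%) at -1 or less, beside 22.3% and 17.8% of all members and 30.1% and 7.26% of all HSF2 sites. At the other HSF2 sites the corresponding medians were -0.0034 with and 0.62 without an element. For Halo-HSF2 by anti-HA the median was 0.79 (0.33 to 1.04) with and 0.57 (0.46 to 0.63) without, and for Halo-H2DBD -0.18 (-0.37 to 0.069) and -0.012 (-0.10 to 0.081).

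The printed elements belong to the strongest of these members. In the intron of Card14, a scaffold of inflammatory signalling, the member nearest the lysosomal gene Sgsh (chr11:119336466-119337096) had an endogenous signal of 43.8 in A and 20.6 in M. The Gadl1 member (chr9:115869897-115870848) had 28.8 and 18.3. The members near Irf8, a transcription factor of myeloid cells (chr8:120819782-120820758, 15.3 and 19.0), and in Etl4, a gene of the intervertebral disc (chr2:20562903-20563803, 19.6 and 7.54), held the 4-unit runs. The member in Sidt2, nearest the smooth muscle gene Tagln (chr9:45941368-45942276), had 17.4 and 14.8. The member near Ube2s, which extends ubiquitin chains for the anaphase-promoting complex (chr7:4819246-4820096), had 18.6 and 12.6, and the one near the testis gene Tcp11 (chr17:28084463-28085173) 12.3 and 18.7. The remaining member, in an exon of Sall3 (chr18:80973500-80974655), had 15.4 and 11.9. The endogenous signal was thus lower in M at 6 of the 8 and higher at the Irf8 and Tcp11 members.

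The mean anti-HA signal at these 8 members ranged from 0.357 at Etl4 to 1.68 at Tagln. It was below the median of all members, 1.30, at each of them except the Tagln member. The full-length anti-HA ratio was above 0 at all of them except the Ube2s member, and the Halo-H2DBD ratio below 0 at all except the Ube2s and Sall3 members. At the Card14 member full-length HSF2 by anti-HA gave 0.126 in A against 1.30 in M (log2 M/A 3.37), the highest ratio of the members for this track. Halo-H2DBD there was 0.865 and 0.675. The lowest Halo-H2DBD ratio of the members, -5.55, was at Etl4, from 0.716 in A to 0.0153 in M. Ratios of signals this small move with a small absolute difference.

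SOX2 sites, from a list in the literature that the authors scored in these cells, overlapped 56 of the members (19.5%, 15.3% to 24.5%). The share was 19.1% over all HSF2 sites, 11.0% for HSF2-only sites at coding starts and 40.4% for HSF1-overlapping sites away from them. The overlap involved 58 of the 15081 SOX2 intervals. SOX2-overlapping members were poorer in CpG, with a median ratio of 0.232 against 0.405. Their endogenous signal had medians of 5.03 in A and 6.42 in M, and a log2 M/A of 0.32 (0.059 to 0.47) against 0.21 (0.043 to 0.41) for the rest. An element of 3 units was present in 10 of them. The member in Pvt1, the long non-coding gene beside Myc (chr15:62086727-62088434), had 17.9 in A and 7.62 in M, and the one in Fam129b (chr2:32907776-32909506) 11.3 and 13.9; both elements are printed above. The strongest was a member in the intron of Kctd16 (chr18:40308031-40308402), with 32.2 and 57.7 and a mean anti-HA signal of 166.9, and it held no element. The other members named under this rule lay near Gm11733 (chr11:117478953-117479660, 7.27 and 22.3) and 122072 bp upstream of Med13l, a Mediator kinase module subunit (chr5:118433075-118438647, 14.7 and 11.6).

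Starts of non-coding genes lay within 1 kb of 20.9% of the members and 22.9% of all HSF2 sites. A long intergenic non-coding RNA gene started inside 22 members, a gene annotated as a processed transcript inside 9, an antisense gene inside 7 and a microRNA gene inside 6. The counts over all 2135 HSF2 sites were 89, 61, 113 and 64. The 60 members within 1 kb of a non-coding start had a median endogenous log2 M/A of 0.47 (-0.20 to 0.73), with 16 (26.7%) at 1 or more and 15 (25.0%) at -1 or less. The shares were 22.3% and 17.8% of all members, and 30.1% and 7.26% of all HSF2 sites. Their median CpG ratio was 0.521 (0.454 to 0.603), between that of the other members and of sites at coding starts. For Halo-H2DBD their median log2 M/A was 0.11 (-0.062 to 0.23), against -0.12 (-0.24 to 0.013) for intergenic members. The member over Snhg20, the host gene of a small nucleolar RNA on chromosome 11 (chr11:117075941-117083003), also held a small Cajal body RNA gene and Mir6516. It had an element and an endogenous signal of 4.28 in A and 4.40 in M.

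Small RNA genes started inside 8 members in all. The Zfp791 member held the predicted microRNA gene Gm23388 and the Mrto4 member the microRNA genes Gm24245 and Gm25732, which belong to the alike sites described above. Mirlet7i, a let-7 microRNA gene that restrains proliferation (chr10:122984796-122987498), lay in a member with 0.434 in A and 1.95 in M and a CpG ratio of 1.11, the highest of the members. Mir1191b lay in an element-bearing member in Nfic (chr10:81411451-81418115), with 4.79 and 7.94. Mir3968 lay in a member in Trim80 (chr11:115447751-115448312), with 8.86 and 3.31. The predicted small nuclear RNA genes Gm23405 (chr4:150964454-150965993, 7.25 and 4.09) and Gm25064 (chr9:63130964-63135451, 6.17 and 3.66) completed the 8.

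Chaperone genes, the best known targets of the heat shock factors, were the nearest coding genes of 3 members, and proteasome, pluripotency, germline and histone genes of 0. Over all 2135 HSF2 sites these last lists held 3, 9, 3 and 20 sites. The 3 chaperone members lay at a distance from the gene. One was in an intron of Xpnpep3, 8187 bp upstream of Dnajb7 (chr15:81416486-81418096, 14.9 in A and 11.5 in M). Another was 5467 bp upstream of Fkbp4, a co-chaperone of HSP90 (chr6:128444144-128447094, 3.74 and 3.64). The last was 66884 bp upstream of Hspa9, which encodes the mitochondrial HSP70 (chr18:35021241-35023129, 4.82 and 6.68). None had a log2 M/A of 1 or more or of -1 or less, and none held an element. Over all HSF2 sites, 32 had a chaperone gene as the nearest, with median signals of 9.77 and 10.0.

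Near the threshold of distance, members just outside included sites 1060 bp from Fbxl22 (chr9:66511134-66513533, 2.22 in A and 5.13 in M) and 1179 bp from Bahd1 (chr2:118902632-118903806, 9.97 and 2.15). The HSF2-only sites just inside lay 914 bp from Otp (chr13:94876516-94877965, 26.7 and 2.12), 814 bp from Dlx1 (chr2:71528927-71530773, 20.9 and 2.59) and 765 bp from A930004D18Rik (chr2:18038502-18041604, 10.8 and 1.87). Within the members the median endogenous log2 M/A was 0.15 (-0.43 to 0.47) at 1 to 5 kb and 0.25 (0.041 to 0.45) at 5 to 50 kb. Beyond 50 kb it was 0.35 (-0.16 to 0.71), so the intervals overlapped, and no trend with distance was tested. The share at -1 or less was 24.6% (14 of 57), 18.1% (28 of 155) and 12.0% (9 of 75) in the same order, beside 7.26% of all HSF2 sites.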

How the data were processed

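CUT&Tag was measured in asynchronous and mitotic JM8 cells. Per the submitters' processing notes, reads were checked with FastQC, aligned to mm10 and dm6 with Bowtie2 with duplicates kept, and turned into tracks with deepTools and bedtools, and peaks were called with SEACR. The deposited signal values are spike-in scaled means over each interval that the authors averaged over 2 replicates. The averaged values carry no read depth, and the read counts per library that the authors tabulated were not used. The 2141 intervals of the HSF2 table held 2135 distinct ones, which were compared with 1726 HSF1 and 15081 SOX2 intervals and 45165 coding starts of GENCODE M21 on GRCm38, with Python 3.11.15, pandas 2.3.3, numpy 2.4.6 and scipy 1.17.1. Figures used matplotlib 3.10.9.

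Log2 M/A was taken without a pseudocount over sites above 0 in both phases. Medians have binomial order-statistic 95% intervals and shares have Wilson intervals. No test was made, since the columns are averages. Sequence likeness was found with blastn 2.17.0 (e-value 1e-10), and words of 32 bases were counted over the standard chromosomes. Alignments between sites had to reach 60 bp and 80% identity. The identity limit was not applied to alignments with the ribosomal RNA gene. The interval, overlap and motif code was tested on simulated data. Alternatives were other distance, overlap and merging rules, pseudocounts of 0.1 and 1, a minimum mean of 1, centring, summed signals, looser elements, and repeats or contigs left out.

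Sites were named by rule: (a) the 5 highest endogenous signals in A and in M; (b) the 5 largest rises and falls of endogenous log2 M/A among members whose signal averaged over both phases reached the members' median; (c) the 5 highest mean anti-HA signals; (d) the 8 element-bearing members with the highest endogenous mean; (e) the 5 SOX2-overlapping members with the highest endogenous mean; (f) members whose 4 ratios share a sign, by the smallest absolute ratio; (g) members just outside 1 kb and HSF2-only sites just inside, nearest first; (h) up to 8 members holding the start of a small nuclear, small nucleolar, micro or ribosomal RNA. Other sites are named as members of a fixed gene list, as sequence partners, or where the text says they were chosen after their values were seen. The members and lists were chosen with earlier results of these data known. The knockout, IgG, HA control and mixed-cell conditions (7 in all, mixes with 5% and 10% wild-type cells) were not analysed here. Expression is not in these tables, so no cell type marker was checked.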

Additional observations from a re-analysis of the deposited data

How the results depend on the processing

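No paired analysis was possible because the deposited columns are averages of replicates, and leaving out a replicate was not run for the same reason. Of 179 values under alternatives, 152 were classed as the same, 25 as moved and 2 as reversed. Medians of log2 M/A and the percents at 1 or more and at -1 or less were the same if inside the main value's 95% interval. Counts of members, shares and the median of full length minus Halo-H2DBD were the same if inside the interval or within 1.5 times. The developmental median stayed inside its interval in 10 of 10 alternatives, from -3.49 to -2.44. The number of members was 230 at a distance over 5 kb, 227 with no start of any gene within 1 kb, 284 with no HSF1 interval within 1 kb and 285 after merging neighbours. The use of the peak-list values, the leaving out of sites rich in repeated words and the leaving out of the contig were chosen after seeing the data.

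Centring on all HSF2 sites (shifts of 0.49, 0.64, 0.57 and 0.10 in the order of the pairs) reversed the endogenous median to -0.25 and the anti-HSF2 median of Halo-HSF2 to -0.056, by construction. It gave 0.022 for Halo-HSF2 by anti-HA and -0.16 for Halo-H2DBD. The percents at 1 or more and at -1 or less became 12.9 and 29.3 for the endogenous protein, 15.0 and 17.9 by anti-HSF2, and 8.36 and 7.67 for Halo-HSF2 by anti-HA. The member counts, higher and lower, were 37 and 84, 42 and 50, 24 and 22, and 13 and 31 for the 4 pairs, against 64 and 51, 93 and 18, 64 and 8, and 17 and 25.

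A pseudocount of 1 gave 16.7% of members at 1 or more for the endogenous protein. By anti-HSF2 the median was 0.39, with 14.6% at 1 or more and 1.74% at -1 or less (42 and 5 members, against 93 and 18). For Halo-HSF2 by anti-HA the median was 0.33, with 2.09% and 0% (6 and 0, against 64 and 8). For Halo-H2DBD the percents were 0 and 1.05 (0 and 3, against 17 and 25). A pseudocount of this size exceeds many of the anti-HA signals, which shrinks ratios by construction. With a mean of A and M of at least 1, Halo-HSF2 by anti-HA had 17.0% at 1 or more and 0% at -1 or less (32 and 0 members), and Halo-H2DBD had 5.00% at -1 or less (10 higher and 10 lower). The ratio of summed signals gave 0.82 by anti-HSF2, 0.89 for Halo-HSF2 by anti-HA and -0.12 for Halo-H2DBD; the cause was not tested. A heat shock element was found in 51.2% of members with 1 mismatch and 70.2% with 2 units, which are looser by construction.

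The HSF2 intervals were called by the authors from the endogenous tracks, so endogenous values are not independent of the choice of sites, whereas the anti-HA tracks had no part in it. The effect of read depth was not assessed, and small anti-HA signals give ratios that move with small absolute differences.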

Other observations

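The member over Mir17hg, the host gene of the miR-17-92 cluster (chr14:115039807-115043288), had a CpG ratio of 0.994 and held 1 element. Its endogenous signal was 2.17 against 1.33 from A to M (log2 M/A -0.71), while Halo-HSF2 by anti-HSF2 had a log2 M/A of 1.51. The member near Hsfy2 (chr1:56781522-56782383), 39.0% of which aligned at 96.7% identity to an annotated ribosomal RNA gene, had 5.76 and 77.4 (3.75). The sites in this paragraph were chosen after their values were seen.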
